A study of Mus musculus with 6 samples.

Results

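Small leucine-rich proteoglycans are secreted matrix proteins whose core is a curved stack of leucine-rich repeats, most of them carrying glycosaminoglycan chains. They bind fibrillar collagens and steer how fibrils assemble and how thick they grow, and several of them hold growth factors such as TGF-beta and myostatin in the matrix. In skeletal muscle they belong to the connective tissue sheath, and cultured myoblasts also secrete some of them. The 8 genes described here are Dcn (decorin), Bgn (biglycan) and Aspn (asporin) of class I, Fmod (fibromodulin), Lum (lumican), Prelp (the proline- and arginine-rich protein PRELP) and Omd (osteomodulin) of class II, and Ogn (osteoglycin) of class III. They are 8 of 22180 genes that the array measured with a probe set, a group of probes summarised to 1 value, annotated to a single gene. They were chosen by their family name with an earlier result of these data in view, in which Dcn was higher after Htt knockdown. Where a gene had more than 1 probe set, the one with the highest mean over the 6 arrays stood for it. The differences between the groups are for that reason given as a description of these arrays; the genes were part of the fit over all genes, and nothing is supported with their p-values.

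Expression was measured on 6 Affymetrix arrays of C2C12 cells, a mouse myoblast line that can fuse into myotubes. A group of 3 arrays came from cells transfected with a pool of siRNAs against Htt, the huntingtin gene, and the other 3 from cells transfected with scramble siRNA as the control. The sample names call the first group a knockout, while the design and treatment texts describe siRNA, so it is called Htt siRNA here. Neither the time after transfection nor the stage of the culture at harvest is given in the sources used here, nor whether replicates were separate cultures, so the spread between arrays may be technical. Values are the deposited log2 RMA values, and a difference of 1 on this scale is a 2-fold difference. Htt itself stood at 4.49, 4.47 and 4.65 with Htt siRNA and at 5.59, 5.60 and 5.72 with scramble, a log2 fold change of -1.10 ± 0.09 (moderated standard error, SE, from limma). Of 10 muscle markers, among them Myod1, Des and Cdh15, 9 lay above the median gene mean of 2.95, a mark of weak signal here. So did 5 of 9 fibroblast, 3 of 6 tendon, 2 of 6 cartilage, 2 of 6 macrophage and 1 of 6 adipocyte markers. Of the osteoblast markers 0 of 7 did, and of the endothelial markers 0 of 5.

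The upstream sequences of 3 members well above that mark, Ogn, Bgn and Prelp, are shown as examples of upstream regions that differ. By the brightest probe set all 3 genes were higher in the Htt siRNA arrays, Bgn by a log2 fold change of 0.18 only. The second probe sets of Bgn and Prelp had overlapping groups. Each sequence is the 250 bases before the annotated transcription start, 5′ to 3′ on the strand of the gene. The source is the RefSeq promoter table of build GRCm38.p6, which held 6 of the 8 members and neither Dcn nor Lum. Capitals mark each match to the E-box letters CANNTG, the core bound by basic helix-loop-helix factors such as the MyoD family. Ogn is at chr13:49607765-49608014 (+ strand), Bgn at chrX:73483351-73483600 (+ strand) and Prelp at chr1:133921402-133921651 (- strand).
Ogn: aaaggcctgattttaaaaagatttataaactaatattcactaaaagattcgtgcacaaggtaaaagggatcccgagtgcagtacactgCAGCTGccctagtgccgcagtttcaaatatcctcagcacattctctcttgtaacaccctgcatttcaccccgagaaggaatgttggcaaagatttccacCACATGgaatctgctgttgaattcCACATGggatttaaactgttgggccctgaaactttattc
Bgn: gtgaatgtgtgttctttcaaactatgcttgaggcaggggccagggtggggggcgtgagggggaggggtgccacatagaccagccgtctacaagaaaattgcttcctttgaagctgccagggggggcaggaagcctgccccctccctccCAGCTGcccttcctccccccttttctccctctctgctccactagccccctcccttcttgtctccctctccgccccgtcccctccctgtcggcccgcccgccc
Prelp: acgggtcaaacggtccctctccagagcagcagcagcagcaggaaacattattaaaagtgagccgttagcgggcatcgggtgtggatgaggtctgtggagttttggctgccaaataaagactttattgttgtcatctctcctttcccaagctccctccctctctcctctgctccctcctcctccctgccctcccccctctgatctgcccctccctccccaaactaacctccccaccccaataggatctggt

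The Ogn sequence held 3 E-box matches, which begin 162, 63 and 39 bases before the start, the first of them with the letters CAGCTG. The Bgn sequence held 1, also CAGCTG, beginning 102 bases before the start, and Prelp held 0. Aspn had 1 match and Fmod 1, and Omd had 0, so 4 of the 6 members with a sequence held the letters. Of all 32851 promoters of the same length, 66.2% held CANNTG and 13.0% held CAGCTG, which also matches CANNTG. Both patterns read the same on either strand. The letters TATAAA, searched on both strands, were found in Ogn and Aspn and in 12.4% of all promoters. These matches began 229 and 227 bases before the start in Ogn, and 207 and 178 in Aspn. The GC box letters GGGCGG, also on both strands, had 3 matches in Bgn and were found in 32.7% of promoters. The AP-1 letters TGANTCA, in 6.75% of promoters, were found in 0 of the 6. The Bgn sequence was rich in G and C at 64.4%, those of Aspn and Omd poor at 30.0% and 38.4%, and the median promoter had 52.4%. A match to these letters is a description of the sequence and does not show that a factor binds there.

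All 8 genes had a positive log2 fold change, and in 6 of them every Htt siRNA array lay above every scramble array. Across all genes, 10.1% had groups that did not overlap with Htt siRNA higher, and 5.91% with Htt siRNA lower; 0 of the 8 members were in the latter class. Dcn, Prelp and Ogn had the largest differences, Fmod and Omd smaller ones at weak signal, and Bgn a small one at bright signal. Aspn and Lum overlapped between the groups. The median log2 fold change of the 8 genes was 0.45, against 0.03 for all genes. In limma, the Benjamini-Hochberg adjustment was made across the whole gene table. Of the 8 members 0 passed an adjusted p of 0.05, as did 0% of all genes. Htt, the siRNA target, had a limma adjusted p of 0.0559 and did not pass either. An unadjusted p under 0.05 with higher values was found for 5 of the 8 and for 5.72% of all genes. These counts rest on the contrast in which the genes were noticed, so nothing is read from them. In a culture, more cells making a transcript and more transcript per cell cannot be told apart.

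**Figure D1:**
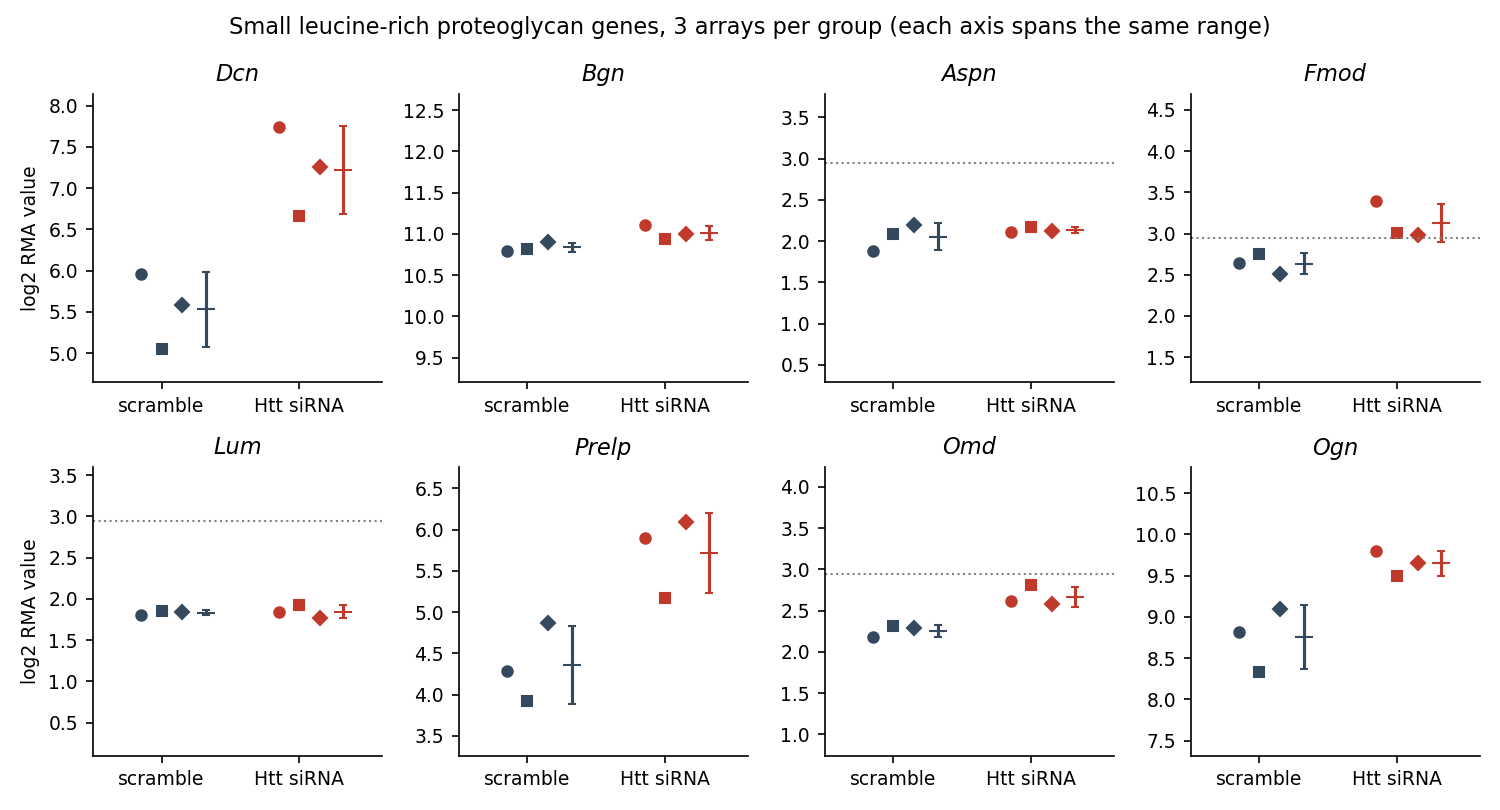
Log2 RMA value of each of the 8 genes in each array (circle, square and diamond for replicates 1, 2 and 3), with the group mean ± SD beside the points, for scramble (dark) and Htt siRNA (red); the dotted line is the median gene mean of 2.95 where it falls in range. The groups are separate for Dcn, Bgn, Fmod, Prelp, Omd and Ogn, and overlap for Aspn and Lum.

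Of the class I genes, which typically carry chondroitin or dermatan sulfate chains, Dcn differed most. Decorin binds collagen fibrils and keeps TGF-beta and myostatin away from their receptors. Its probe set, 17236800, stood at 7.74, 6.67 and 7.25 in Htt siRNA replicates 1, 2 and 3 and at 5.96, 5.05 and 5.59 in scramble replicates 1, 2 and 3. The lowest Htt siRNA array lay 0.71 above the highest scramble array on the log2 scale. Means were 7.22 ± 0.54 with Htt siRNA and 5.53 ± 0.45 with scramble (SD, n = 3), a log2 fold change of 1.69 ± 0.30 (SE) or 3.22-fold. Leaving out each array in turn gave values from 1.43 to 1.96.

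Bgn, whose product is the closest relative of decorin and is abundant in bone and muscle matrix, was bright in every array. Probe set 17535558 stood at 11.11, 10.94 and 10.99 with Htt siRNA and at 10.79, 10.82 and 10.90 with scramble. The groups were separate by 0.04 only, with a log2 fold change of 0.18 ± 0.09 (SE), or 1.13-fold. The second probe set of Bgn, 17542364, stood at 8.54, 8.69 and 9.04 with Htt siRNA and at 8.36, 8.26 and 8.68 with scramble. Its difference of 0.32 was the larger one, but its groups overlapped, since scramble replicate 3 lay above Htt siRNA replicate 1. The separation of the Bgn groups thus held for 1 of its 2 probe sets.

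Aspn, whose product competes with decorin for collagen and carries a stretch of aspartates, was weak in all arrays. It stood at 2.11, 2.18 and 2.12 with Htt siRNA and at 1.88, 2.09 and 2.20 with scramble, and the groups overlapped. Its log2 fold change was 0.08 ± 0.10 (SE), and its sign turned to -0.01 when scramble replicate 1 was left out. At this signal a difference would be hard to see, and no statement is made that the gene was silent.

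Among the class II genes, which typically carry keratan sulfate or tyrosine sulfate, Prelp stood apart. PRELP anchors basement membranes to collagen through a basic stretch that binds heparin and heparan sulfate. Its probe set 17227077 stood at 5.90, 5.17 and 6.09 with Htt siRNA and at 4.29, 3.93 and 4.87 with scramble. The means were 5.72 ± 0.48 and 4.36 ± 0.47 (SD, n = 3), and the log2 fold change was 1.36 ± 0.29 (SE), or 2.57-fold, with values from 1.15 to 1.64 when each array was left out. A second, dim probe set of Prelp, 17217369, stood at 2.64, 2.61 and 2.91 against 2.63, 2.64 and 2.77, a difference of 0.04 with overlapping groups. Taking the mean of both probe sets therefore lowered the Prelp value to 0.70 ± 0.19.

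Fmod, whose product binds collagen and guides its cross-linking by lysyl oxidase, lay close to the weak-signal mark. Probe set 17217373 stood at 3.39, 3.00 and 2.98 with Htt siRNA and at 2.64, 2.75 and 2.51 with scramble, so the groups were separate by 0.23. The log2 fold change was 0.49 ± 0.13 (SE), or 1.40-fold. Its second probe set, 17227083, gave a like difference of 0.42 and separate groups, at 2.32, 2.46 and 2.36 against 2.01, 1.91 and 1.97. Both Fmod probe sets thus placed all 3 Htt siRNA arrays higher, although both were dim.

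Omd, first found in bone matrix, stood at 2.62, 2.81 and 2.58 with Htt siRNA and at 2.17, 2.31 and 2.29 with scramble. The groups were separate by 0.27, with a log2 fold change of 0.41 ± 0.10 (SE). Lum, which shapes collagen fibrils in cornea, skin and tendon, stood at 1.84, 1.93 and 1.77 against 1.81, 1.86 and 1.84. Its log2 fold change of 0.01 ± 0.08 (SE) was the smallest of the 8, its groups overlapped, and its sign varied between the alternatives run.

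Ogn, the class III member, encodes a matrix protein first purified from bone and also made by muscle cells. Probe set 17287175 stood at 9.80, 9.50 and 9.65 with Htt siRNA and at 8.82, 8.33 and 9.10 with scramble. All 3 Htt siRNA arrays were higher, by 0.40 at the nearest. The means were 9.65 ± 0.15 and 8.75 ± 0.39 (SD, n = 3), and the log2 fold change was 0.90 ± 0.19 (SE), or 1.87-fold, with values from 0.69 to 1.07 when each array was left out. The scramble arrays were more spread than the Htt siRNA arrays, with replicate 2 the lowest.

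**Figure D2:**
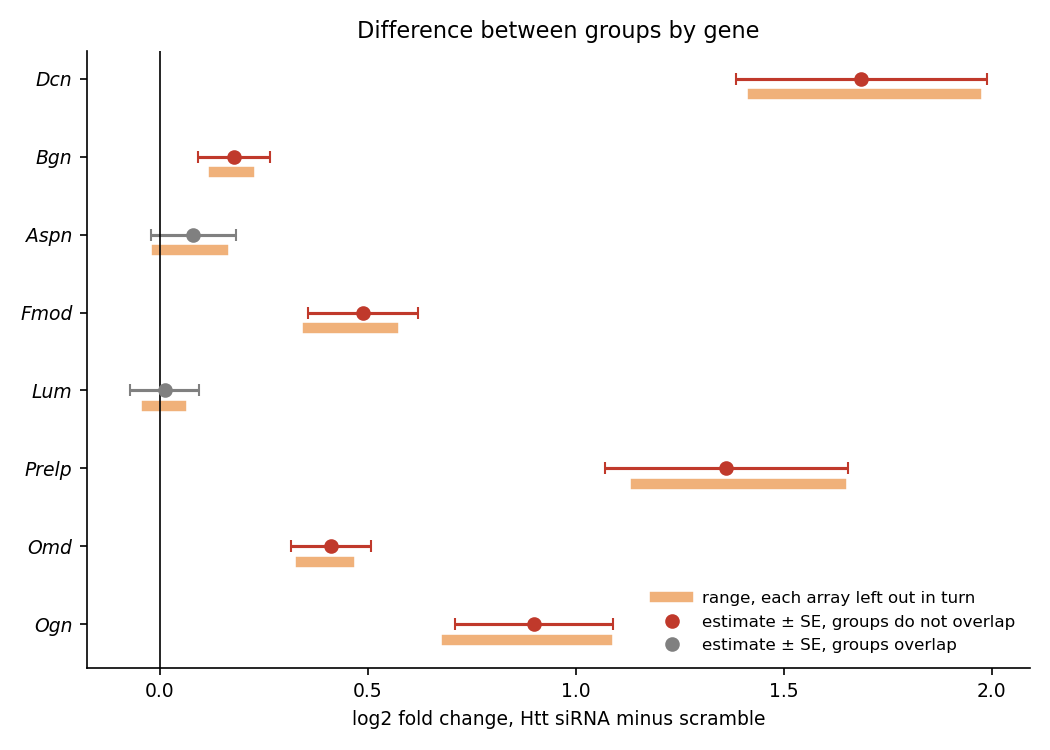
Log2 fold change of each gene, Htt siRNA minus scramble, with its SE (points and bars), and the range of the estimate when each array was left out in turn (orange). Dcn at 1.69 and Prelp at 1.36 lie farthest from 0, Ogn at 0.90 follows, and Aspn and Lum lie at 0.08 and 0.01.

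The arrays within each group were unequal, and the 3 genes with the largest differences shared the lowest array of each group but not the order of the others. Htt siRNA replicate 2 was the lowest of its group for Dcn, Prelp and Ogn, and scramble replicate 2 was the lowest of the scramble group for the same genes. Relative to the 6-array mean, Dcn stood at 1.36, 0.29 and 0.88 in Htt siRNA replicates 1, 2 and 3 and at -0.42, -1.32 and -0.79 in the scramble arrays. Omd had another order, with Htt siRNA replicate 2 the highest of all arrays, and Fmod was highest in Htt siRNA replicate 1.

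Other genes also varied across the arrays within each group. The mean of 10 muscle markers, relative to its 6-array mean, was 0.85, 0.09 and 0.80 in the Htt siRNA arrays and -0.54, -0.88 and -0.33 in the scramble arrays, so Htt siRNA replicate 2 was again the lowest of its group. The mean of 6 MCM helicase genes, which license DNA replication, ran the other way at -1.12, 0.36 and -0.84 against 0.21, 0.81 and 0.58. The mean of 11 genes of the endoplasmic reticulum and amino acid stress responses split both groups, at 0.89, -1.17 and 0.95 with Htt siRNA and 0.94, -1.08 and -0.52 with scramble. Of these 11 genes all had a positive log2 fold change, with a median of 0.45, but 0 had separate groups and 0 an unadjusted p under 0.05. The part of these states in the proteoglycan differences was not tested. Without Htt siRNA replicate 2, limma passed 540 genes, 117 of them higher. Dcn (1.96 ± 0.26, limma adjusted p = 0.0166) and Prelp (1.64 ± 0.25, adjusted p = 0.0250) were among the latter, 2 of the 8 members against 0.528% of all genes. That array was the lowest of its group for both genes, so dropping it raised their differences, and nothing is read from this count. Over all alternatives run, limma's adjusted p lay between 0.00532 and 0.624 for Dcn and between 0.0133 and 0.640 for Prelp.

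**Figure D3:**
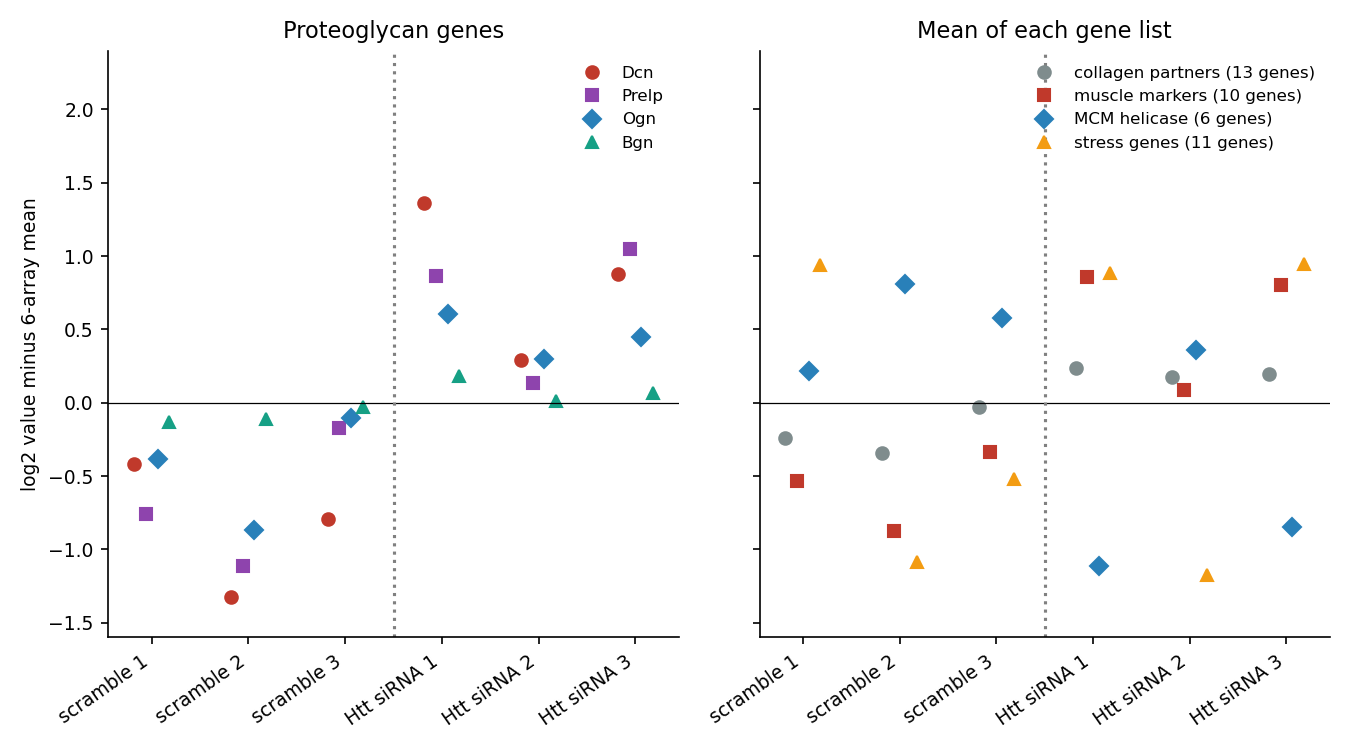
Log2 value minus the 6-array mean in each array, for 4 proteoglycan genes (left) and for the mean of 4 gene lists (right); the dotted line divides scramble from Htt siRNA. In Htt siRNA replicate 2, Dcn (0.29), Prelp (0.13) and the muscle markers (0.09) lie lowest within their group, while the MCM genes (0.36) lie highest.

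Among 105 genes outside the 8 with an absolute log2 fold change of at least 1, those whose values followed Dcn most closely over the 6 arrays were Mymk (r = 0.99), which encodes the fusion protein myomaker, Cd200 (r = 0.98), a surface glycoprotein, Glrb (r = 0.98), the beta subunit of the glycine receptor, Acta1 (r = 0.98), skeletal muscle actin, and Ccn3 (r = 0.98), a matricellular protein. Their log2 fold changes were 2.11 ± 0.33, 1.19 ± 0.24, 1.06 ± 0.19, 1.35 ± 0.23 and 1.28 ± 0.19 (SE), in that order. The arrays fall into 2 groups that differ for all these genes, so r is a measure of likeness only and reflects the group difference as well as the order within groups.

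Several of these proteoglycan genes are neighbours in the genome, and neighbours differed unequally. By the gene order of the RefSeq table of GRCm38.p6, Dcn, Lum, Kera and Epyc follow each other on chromosome 10, Ecm2, Aspn, Omd and Ogn on chromosome 13, and Optc, Prelp and Fmod on chromosome 1, while Bgn on chromosome X has no family neighbour. Beside Dcn at 1.69, Lum had a log2 fold change of 0.01 ± 0.08, Kera (keratocan) 0.15 ± 0.09 and Epyc (epiphycan) -0.03 ± 0.10, all 3 at weak signal. On chromosome 13, Ecm2 had 0.18 ± 0.10, Aspn 0.08, Omd 0.41 and Ogn 0.90, and only Ogn was above the weak-signal mark. On chromosome 1, Optc (opticin) had 0.11 ± 0.09, Prelp 1.36 and Fmod 0.49. The unrelated genes that flank the clusters stood at 0.39 ± 0.21 (Atp2b4) and 0.33 ± 0.19 (Btg2) on chromosome 1, at -0.53 ± 0.18 (Cenpp) and 0.14 ± 0.18 (Nol8) on chromosome 13, and at 0.13 ± 0.10 (Ccer1) on chromosome 10. In each of the 3 clusters the gene with the largest difference was also the 1 family gene above the weak-signal mark. RMA compresses weak signals, so the small differences of the dim neighbours are uncertain.

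**Figure D4:**
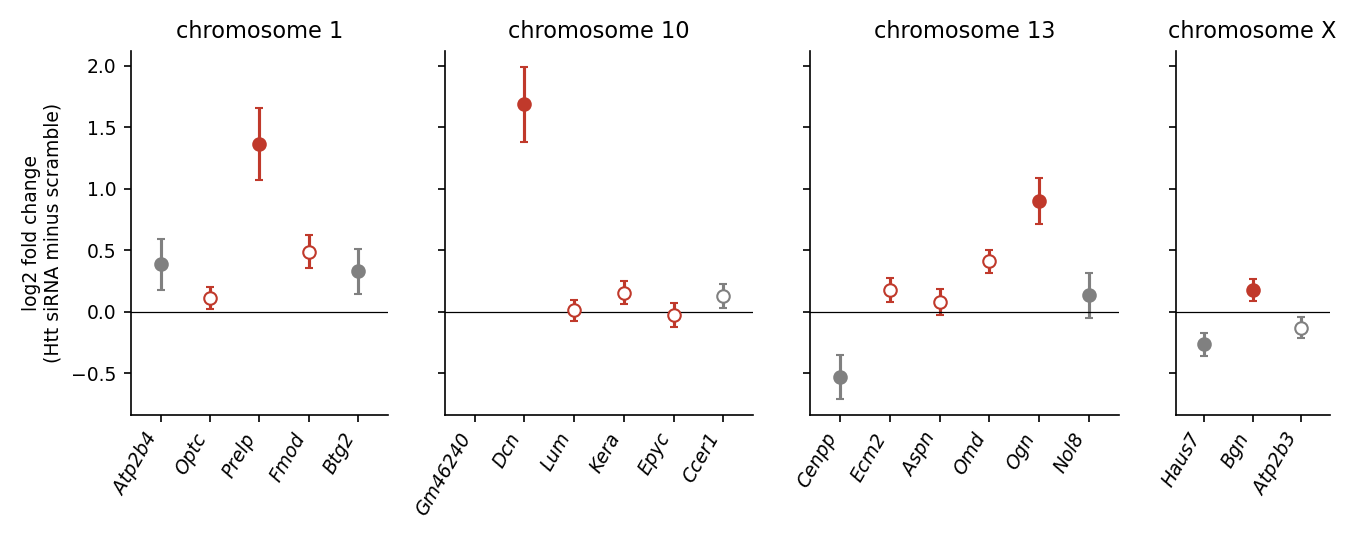
Log2 fold change ± SE (Htt siRNA minus scramble) of family genes (red) and of the flanking protein-coding genes (grey) in RefSeq gene order, for 4 chromosomes; open points have a mean below the median gene mean, and a name with no point (Gm46240) has no value here. Dcn, Prelp and Ogn stand above their family neighbours.

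The rest of the family was mostly dim. Of 9 measured further members, 3 had separate groups with Htt siRNA higher (Kera, Podn and Ecm2, each by under 0.1), against 10.1% of all genes, 0 had them lower, and their log2 fold changes lay between -0.19 and 0.26 with a median of 0.15. Only 2 of these 9, Chadl (chondroadherin-like) at 0.26 ± 0.12 and Podnl1 (podocan-like) at -0.19 ± 0.14, were above the weak-signal mark, and neither had separate groups. Whether these 9 genes differed less than the 8 was not tested.

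Fibrillar collagens and other genes of the matrix to which these proteoglycans bind differed in the same direction. Of 13 genes on that list, 8 had separate groups with Htt siRNA higher and 0 lower, against 10.1% and 5.91% of all genes. On the same list 0 passed the threshold over all genes, and the median log2 fold change was 0.40. Col1a1, a chain of the main fibrillar collagen, stood at 8.10, 7.58 and 8.28 with Htt siRNA and at 6.73, 6.50 and 7.23 with scramble (1.17 ± 0.23). Col12a1, a collagen on the fibril surface that binds decorin and fibromodulin, stood at 7.23, 7.07 and 6.87 against 6.28, 6.15 and 6.36 (0.80 ± 0.11). Col6a2, a chain of the microfibrillar collagen that biglycan binds, stood at 6.18, 6.02 and 6.08 against 5.46, 5.24 and 5.61 (0.65 ± 0.11). The lysyl oxidase gene Lox, at -0.10 ± 0.15, and Col6a3, at -0.08 ± 0.15, overlapped between the groups. The list of partners was written with earlier results known, in which Col1a1 and Col12a1 were already higher.

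Genes that build the sugar chains, listed with the tyrosine sulfotransferase genes Tpst1 and Tpst2, lay close to 0 as a list. Of these 33 genes, mostly of linkage, chondroitin, dermatan and keratan sulfate synthesis, 4 had separate groups with Htt siRNA higher and 0 lower. The median was -0.04. B4galt1, a galactosyltransferase, had 0.32 ± 0.11 and Chst12, a chondroitin 4-sulfotransferase, 0.28 ± 0.12. On the negative side, the sulfotransferase gene Chst1 had -0.51 ± 0.21 and Csgalnact2, which encodes a chondroitin N-acetylgalactosaminyltransferase, -0.39 ± 0.15, both with overlapping groups. An unadjusted p under 0.05 was found for 1 gene of the list with higher and 2 with lower values. Over all genes, 5.72% were higher and 1140 of 22180 lower at that p. Of the 33 log2 fold changes, 15 were positive. Of 27 receptors and growth factors known to bind the family, 2 had separate groups, Tgfb2 at 0.39 ± 0.10 and the integrin subunit Itgb1 at 0.15 ± 0.09, with a median of 0.04. Of 24 other proteoglycan genes, 3 had separate groups with Htt siRNA higher, the syndecans Sdc2 (0.57 ± 0.18) and Sdc3 (0.31 ± 0.11) and the glypican Gpc1 (0.30 ± 0.11), with a median of 0.08. These shares can be set beside the 10.1% of all genes, and 0 genes of the 3 lists passed the threshold over all genes.

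Of 15 proteases and helpers that mature or cut matrix proteins, 6 had separate groups with Htt siRNA higher, against 10.1% of all genes, and 0 lower, and the median was 0.06. Adamts5, a proteoglycan-cutting metalloprotease, had the largest value at 1.17 ± 0.25, with means of 5.92 ± 0.40 and 4.75 ± 0.42 (SD, n = 3). Mmp2, a gelatinase, had 0.47 ± 0.16 and Adamts4, a relative of Adamts5, 0.40 ± 0.18. None of the 15 passed limma's threshold over all genes. At an unadjusted p under 0.05, 4 had higher values, against 5.72% of all genes. Lower values at that p were found for 1, the procollagen C-proteinase enhancer gene Pcolce2 at -0.68 ± 0.24, against 1140 of 22180 genes.

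Small leucine-rich proteoglycans are also typical of fibroblasts, tendon, bone and cartilage, so markers of these cells were read in the same arrays. The mean log2 level of 9 fibroblast markers lay between 4.45 and 4.61 with Htt siRNA and between 4.46 and 4.47 with scramble, with 1 gene separate upwards (Tcf4, 0.25 ± 0.11) and 1 downwards (Pdgfra, -0.26 ± 0.11), and 5 of the 9 above the weak-signal mark. Tcf4 encodes an E-protein and is not Tcf7l2, the fibroblast marker whose product shares that name. Without it, a choice made with the data in view, the mean of the other 8 lay between 4.12 and 4.30 against 4.14 and 4.18, with 0 genes separate upwards, 1 downwards and 4 above the mark. The mean of 6 tendon markers lay between 3.725 and 4.004 with Htt siRNA and between 3.62 and 3.717 with scramble, so the list means did not overlap, with 3 of 6 genes above the mark and 5 of 6 positive. None of the 6 tendon genes had separate groups, and their log2 fold changes were 0.88 ± 0.33 for Fibin, the 1 gene with an unadjusted p under 0.05 in limma, 0.25 ± 0.14 for Mkx, 0.12 for Scx and 0.04 for Tnmd, with Thbs4 at 0.08 and Egr2 at -0.19. The part of this list in the proteoglycan differences was not tested. The mean of 7 osteoblast markers lay between 2.32 and 2.43 against 2.33 and 2.35, with 0 of 7 above the mark, and that of 6 cartilage markers between 3.20 and 3.38 against 3.18 and 3.36, with 2 of 6. Adipocyte markers (1 of 6 above the mark), macrophage markers (2 of 6) and endothelial markers (0 of 5) had median log2 fold changes of 0.07, 0.04 and 0.07. As with tendon, the endothelial list means did not overlap, at 2.36 to 2.42 with Htt siRNA and 2.24 to 2.33 with scramble. All 5 endothelial genes were positive, 0 had separate groups, and all were at weak signal, so separate list means were not particular to tendon. Of the macrophage markers 5 of 6 were positive, with Lyz2 (0.51 ± 0.14) separate upwards and Cd68 (-0.39 ± 0.14) downwards. The muscle markers had a median of 0.62 and 8 of 10 separate upwards, against 10.1% of all genes, led by Myog (2.68 ± 0.44), Actc1 (2.21 ± 0.38) and Mymk (2.11 ± 0.33).

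**Figure D5:**
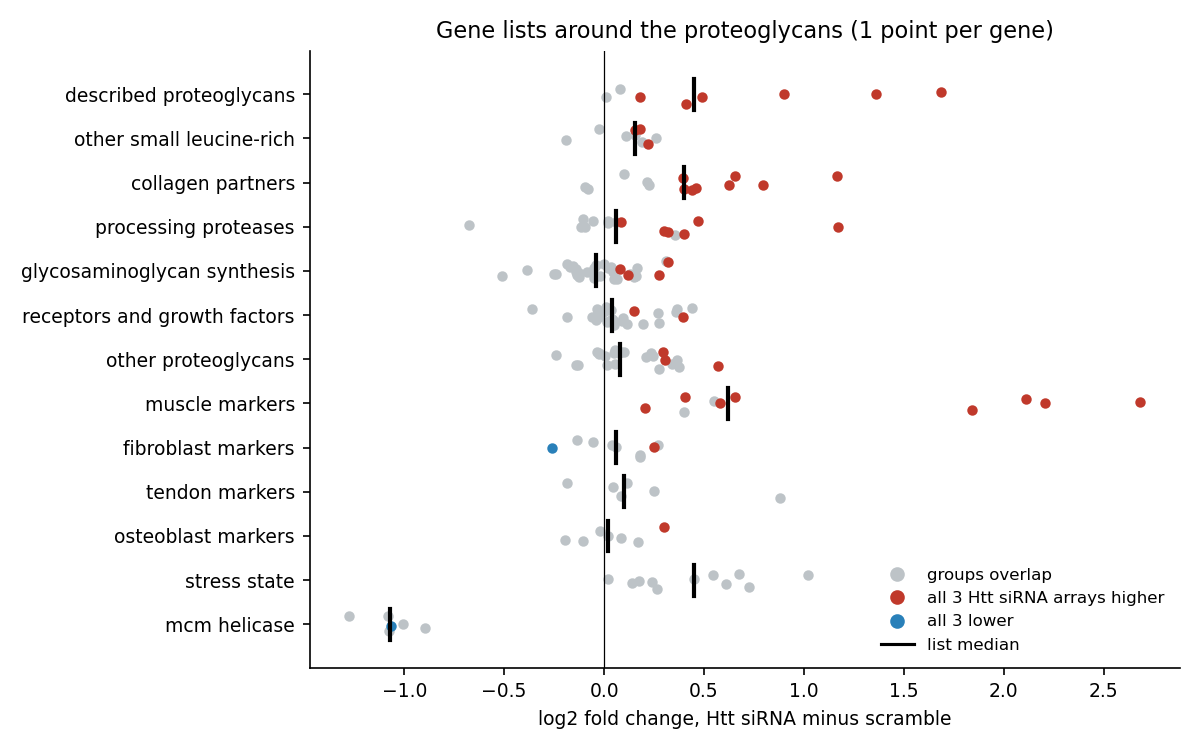
Log2 fold change of every measured gene in 13 lists (1 point per gene, vertical position within a row is random), coloured by whether the 3 Htt siRNA arrays all lay above or below the 3 scramble arrays, with the median of each list as a bar. The medians of the described proteoglycans (0.45), collagen partners (0.40), muscle markers (0.62) and of the stress genes (0.45) lie to the right of those of the other lists shown, which lie between -0.04 and 0.15 except for the MCM genes at -1.07.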

How the data were processed

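Total RNA of C2C12 cells was hybridised to 6 Affymetrix arrays. The authors deposited log2 values for 41345 probe sets, made with RMA and the affy package per the submitters' processing notes, which give no versions; RMA includes quantile normalization. Deposited values spanned 0.84 to 12.12, array medians lay between 2.59 and 2.67, and pairs of arrays correlated at 0.981 to 0.991. The number of arrays limits the precision. The table holds no detection calls.

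Of the probe sets, 23521 had 1 gene symbol in the platform annotation, 1814 several and 16010 were unnamed here; 23328 of the first were found by Entrez identifier in RefSeq. The brightest probe set by mean stood for each of 22180 genes. limma 3.58.1 (R 4.3.3; lmFit, eBayes, group as the only term, two-sided, Benjamini-Hochberg over all genes, threshold 0.05) was checked on simulated data. Tables and plots used Python 3.11.15, pandas 2.3.3 and matplotlib 3.10.9. Members and the 16 other lists (198 entries, 193 measured) were chosen with earlier results of these data known. Of each list up to 3 genes were named, those past the threshold or else those with the largest difference among separate groups above the median gene mean; further list genes in the text were picked with their values known. Alternatives were each array left out, centring, repeated quantile normalization, mean of probe sets, a filter on dim genes, array weights, a replicate block, another variance prior and, added with the data in view, the fibroblast markers without Tcf4.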

Additional observations from a re-analysis of the deposited data

How the results depend on the processing

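Of the 8 genes, 6 had separate groups under centring on the array medians, where 7.02% of all genes did so upwards. The count was also 6 under repeated quantile normalization (9.75% of all genes) and with the mean of probe sets (10.0%). With the dim genes left out, 4 of the 4 remaining did, against 7.13% of all genes kept. Leaving out each array in turn gave 6 to 7, while the share of all genes was then between 13.7% and 19.1%. The median log2 fold change of the 8 genes lay between 0.40 and 0.51 in all alternatives run except the filter on dim genes, where the 4 remaining members had 1.13. Dcn, Bgn, Fmod, Prelp, Omd and Ogn kept a positive sign in every alternative that included them; Aspn changed sign in 1 of 12 alternatives and Lum in 5 of 12. The number of genes that limma passed was 1 with array weights, 3 with centred arrays, 3 with repeated quantile normalization, 3 with the filter on dim genes and 4 with the trend and robust prior, with 0 members among them, and 0 to 540 when each array was left out, with 540 reached when Htt siRNA replicate 2 was dropped and 1 when scramble replicate 1 was. Centring also moved the split at an unadjusted p under 0.05 from 1269 higher and 1140 lower to 911 and 1465, with 5 members higher in both.

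With the replicate number as a block, limma passed 98 of 22180 genes, 41 of them higher. Among the latter were 2 of the 8 members, Dcn (limma adjusted p = 0.00532) and Prelp (adjusted p = 0.0133), and nothing is read from this count. Deviations of same-numbered arrays correlated at 0.35, 0.36 and 0.01. Htt siRNA replicates 1 and 2 correlated best with the same-numbered scramble array, and replicate 3 with scramble replicate 1 (0.22). The labels give only a number, and these correlations cannot decide whether same-numbered arrays were made together. The replicate block is therefore given as an alternative only. Without detection calls and with 4 of the 8 genes below the median gene mean, small differences of Aspn, Lum, Omd and Fmod are limited by signal.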
